A study of Mus musculus with 5 samples.

Results

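The arrangement of H3K9me3 relative to H3K36me3 was examined in L-proline-treated mouse embryonic stem cells (ESCs). Members were all islands of either mark on the 19 autosomes in the deposited lists of these cells, 24422 for H3K9me3 and 16363 for H3K36me3. These 40785 islands are part of 73415 in the 4 lists of the series. An island is a broad region of enrichment reported by the peak finder SICER. Each H3K9me3 island was placed by its distance to the nearest H3K36me3 island and by whether it lay outside, across an edge or wholly inside one.

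Wild-type TBV2 cells, a 129/SvP line kept feeder-free on gelatin with leukemia inhibitory factor and no non-essential amino acids, were grown for 5 days with 500 µM L-proline and are called PiCs. Untreated ESCs were cultured in the same way for 5 days without L-proline, and their lists appear below only as values set side by side. Each mark in each condition was mapped by chromatin immunoprecipitation sequencing (ChIP-seq) in 1 library, with antibody ab8898 against H3K9me3 and ab9050 against H3K36me3. No comparison has a replicate, and no test between conditions was possible.

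Trimethylation of histone H3 at lysine 9 binds HP1 proteins and marks silent chromatin. In ESCs it is laid down largely by SETDB1 over retroviral repeats and by SUV39H enzymes near centromeres. Trimethylation at lysine 36 is placed by SETD2, which travels with elongating RNA polymerase II, and covers the bodies of transcribed genes. The marks are therefore usually found apart, although the bodies of some zinc finger genes and some imprinted loci are known to carry both. L-proline is known to turn compact ESC colonies into motile, spindle-shaped cells. Positions below are on mouse build mm9, and genes and sequence at them were not analysed here.

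Each island comes with a whole number, taken here to count its sequenced tags, and tags per kb are called tag density. The PiC lists held 3294772 tags in autosomal H3K9me3 islands and 15594739 in H3K36me3 islands. These sums cover islands alone, and total library depth is unknown. H3K9me3 islands covered 91.4 Mb with a median width of 3.20 kb, and H3K36me3 islands covered 225.4 Mb with a median width of 8.80 kb. Intervals are 95% intervals over islands. They cover counting error only, since neighbouring islands and PCR copies are not independent.

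Most H3K9me3 islands of PiCs lay far from any H3K36me3 island. Only 1548 of the 24422, or 6.34% (exact binomial interval 6.04 to 6.65), shared a base with one. A further 525 (2.15%) lay within 5 kb, 1664 (6.81%) between 5 and 20 kb, 4751 (19.5%) between 20 and 100 kb, and 15934 (65.2%, interval 64.6 to 65.8) beyond 100 kb. With the 50% of H3K36me3 islands of highest tag density alone, the share sharing a base was 3.42%. Islands that shared no base had a median distance of 232.4 kb (order-statistic interval 226.6 to 238.0), and their middle 50% ran from 75 to 611.8 kb. The distance exceeded 1 Mb for 3132 of them (13.7%), and 3 abutted an H3K36me3 island with no base between. The 3 farthest lay together on chromosome 5, at 59111601 to 59114800, 59304001 to 59307400 and 59040801 to 59043400, between 4988 and 5059 kb from the nearest H3K36me3 island. Their tag densities were 32.2, 50 and 30.4 per kb. The first and last lie within the middle 50% of the autosomal list (27.5 to 41.4), and the second lies above it.

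The genome itself is mostly distant from H3K36me3, so the counts were set beside the length available. Sequence under H3K36me3 made up 9.35% of the span between the first and last island of each chromosome but held 6.0% of H3K9me3 bases. Sequence more than 100 kb away made up 60.05% of the span and held 66.1% of H3K9me3 bases. H3K9me3 covered 2.43% of the bases under H3K36me3, 1.94% of those within 5 kb of it, 3.23% of those from 5 to 20 kb, 3.92% of those from 20 to 100 kb and 4.17% of those beyond, against 3.79% over the whole span. Coverage within 5 kb was thus 0.465 times that beyond 100 kb. Of the 5 zones, the lowest coverage was not under H3K36me3 but beside it.

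Finer steps from the H3K36me3 edge showed a trough in the immediate flank. Outward from the edge, H3K9me3 covered 2.16% of the first kb, 1.57% of the second, 1.97% from 2 to 5 kb, 2.88% from 5 to 10 kb and 3.46% from 10 to 20 kb. It reached 4.42% from 100 to 200 kb and was 3.84% from 500 kb to 1 Mb. Inward from the edge, it covered 4.56% of the first kb, 4.34% of the second, 2.84% from 2 to 5 kb, 1.35% from 5 to 10 kb and 0.742% from 10 to 20 kb. More than 20 kb inside it covered 0.356%.

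The width of the H3K36me3 island went with much of this pattern. The outer kb of H3K36me3 islands under 5 kb wide was covered by H3K9me3 over 10.5% of its length, that of islands of 5 to 20 kb over 3.32%, and that of islands of 20 kb or more over 1.14%. Coverage in the first kb outside was 5.19%, 1.40% and 0.543% in the same order. Around the 3388 wide islands the flank stayed low to 2 kb (0.565% in the second kb), then rose to 1.303%, 2.76% and 4.23% in the next steps out to 20 kb. Wide H3K36me3 islands were thus poor in H3K9me3, most of all in their flanking 2 kb and more than 20 kb inside, whereas narrow ones were richer in it than the whole span.

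**Figure D1:**
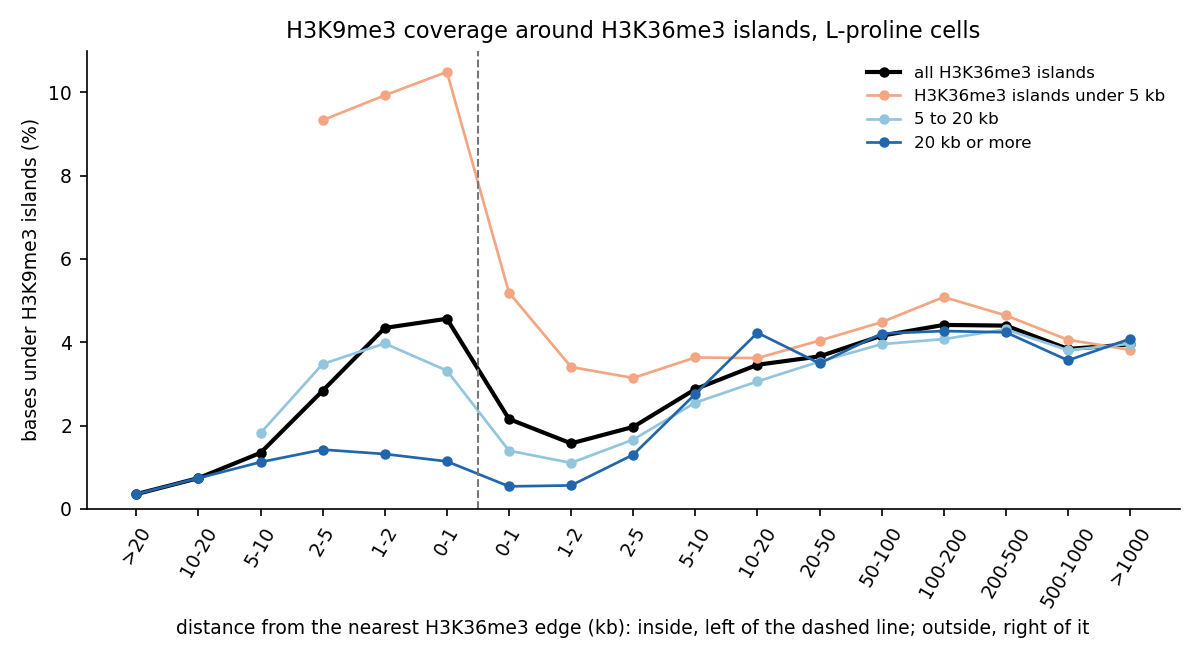
Percentage of bases under H3K9me3 islands in steps inside (left of the dashed line) and outside (right) the edge of the nearest H3K36me3 island in PiCs, in kb, for all H3K36me3 islands and for 3 width ranges; steps with less than 0.2 Mb are left out. In the first kb outside the edge the values are 5.19% for islands under 5 kb and 0.543% for islands of 20 kb or more, and all lines lie between 3.49% and 5.09% beyond 20 kb.

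Tag density of H3K9me3 islands declined in steps with distance from H3K36me3. The median was 38.3 tags per kb (interval 37.5 to 39.2) for islands sharing a base, 35.6 (34.6 to 36.4) to 5 kb, 35 (34.3 to 35.7) to 20 kb, 34 (33.5 to 34.4) to 100 kb and 32.6 (32.5 to 32.8) beyond. The first median was 1.18 times the last. The middle 50% of the classes overlapped widely, at 30.6 to 48.8 for islands sharing a base and 27.2 to 40.0 for those beyond 100 kb. The order therefore describes medians and does not separate islands. On each of the 19 autosomes the median of islands sharing a base was above that of islands beyond 100 kb. Ratios ran from 1.10 on chromosome 5, with 114 islands sharing a base, to 1.35 on chromosome 19, with only 16.

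Width followed another order. Median width was 3.6 kb (interval 3.4 to 3.8) for islands sharing a base, 2.80 kb in the next classes to 5 and to 20 kb, 3 kb to 100 kb and 3.20 kb beyond. Wider islands met H3K36me3 more often, as 4.77% of islands under 2 kb shared a base with H3K36me3 against 12.7% (interval 10.4 to 15.3) of those of 10 kb or more. A wider island has more bases with which to meet H3K36me3. The part of this in these shares and in the median widths was not tested. The share wholly inside moved less, at 4.01% for islands under 2 kb and between 2.74% and 3.57% in the wider ranges.

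Density also depends on width, so medians were compared within ranges of width. Among islands under 2 kb the median was 41.3 tags per kb for those sharing a base and 39.2 for those beyond 100 kb, and the intervals overlapped (38.3 to 44.3 and 38.8 to 39.4). Among islands of 3 to 5 kb it was 37.5 (35.6 to 38.8) against 30.3 (30 to 30.7), a ratio of 1.24. The ratio was 1.09 from 2 to 3 kb, 1.24 from 5 to 10 kb and 1.19 at 10 kb or more. Seen from the other side, 3.93% of the islands in the fourth of the list with the lowest density shared a base with H3K36me3, then 4.85% and 6.01%, and 10.6% (interval 9.80 to 11.4) in the fourth with the highest. Among islands of 3 to 5 kb these shares were 3.31%, 5.18%, 4.97% and 12.5%.

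**Figure D2:**
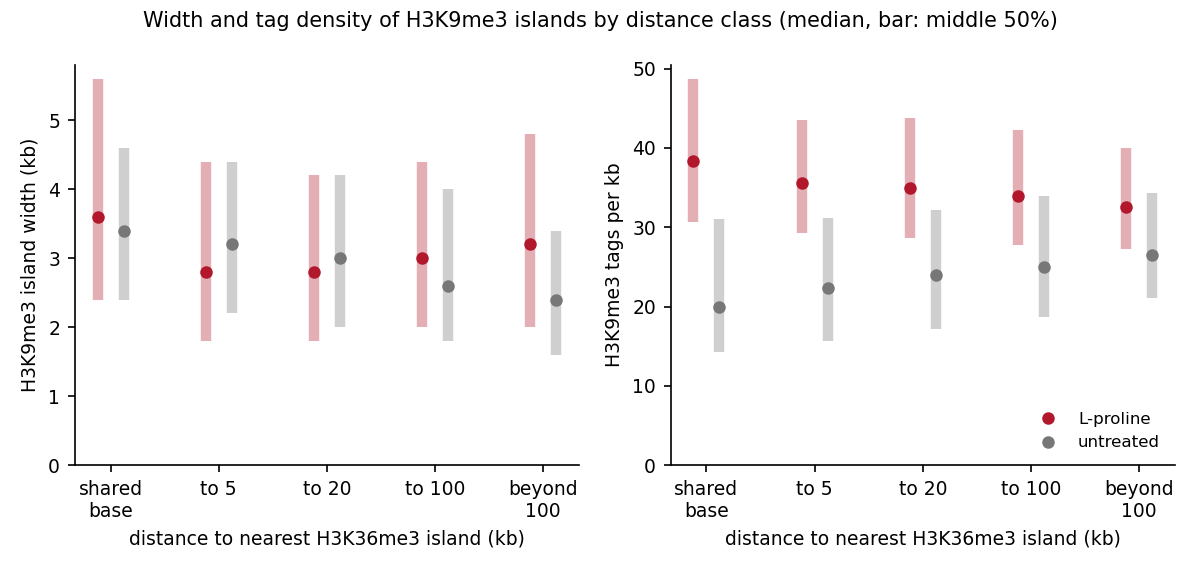
Median width (left, kb) and median tag density (right, tags per kb) of H3K9me3 islands in 5 classes of distance to the nearest H3K36me3 island, for PiCs and, beside them, untreated ESCs; bars span the middle 50% of islands. The PiC density runs from 38.3 for islands sharing a base to 32.6 beyond 100 kb, and the untreated one from 20 to 26.5; levels are not scaled between the libraries.

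The 3 densest H3K9me3 islands of each distance class up to 100 kb included some of 0.8 kb or less. Beyond 100 kb the 3 densest were 5.60, 1.20 and 4.60 kb wide. An island on chromosome 9 at 35112601 to 35113400, 26.6 kb from H3K36me3, held 1875 tags in 0.8 kb, or 2344 per kb. Another of 0.6 kb on chromosome 4 at 70039001 to 70039600, 7.20 kb from H3K36me3, held 1100 per kb. Beyond 100 kb the densest was the 5.60 kb island on chromosome 2 at 98502201 to 98507800 with 1852 per kb, 3012 kb away from H3K36me3. Within 5 kb the densest was the 73.0 kb island on chromosome 11 at 3027201 to 3100200 with 335.6 per kb, which lay 4 kb from an H3K36me3 island. Input tags were not analysed here, and the part of tags that gather without the antibody in these values was not tested.

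Of the 1548 H3K9me3 islands that shared a base with H3K36me3, 821 lay wholly inside an H3K36me3 island and 727 lay across an edge. The inside islands were 3.36% of the list (interval 3.14 to 3.595). This share was 1.96% against the 50% of H3K36me3 islands of highest density, and 5.83% when only the midpoint of the H3K9me3 island had to lie inside. Those across an edge comprised 399 that crossed 1 edge of 1 island, 318 that covered at least 1 H3K36me3 island from end to end, and 10 that joined the facing edges of neighbouring H3K36me3 islands. Median width was 2.80 kb for inside islands, 4.00 kb for those crossing 1 edge and 5.40 kb for those covering a whole H3K36me3 island. Median density rose in the same order, at 36 (interval 35 to 37.4), 37.8 (36.4 to 40.3) and 43.2 (41.8 to 45.8) tags per kb. By definition an inside island is no wider than its host, and a covering island is no narrower than the island it covers. The order of widths therefore follows in part from the classes, and their densities were not compared within ranges of width. The 10 that joined neighbours had a median of 29.5 tags per kb with a wide interval (25 to 35.8), which includes the 33.1 of islands outside. The bases under both marks came to 5.48 Mb, of which 52.2% lay in inside islands, 22.5% in covering islands and 25.3% in the others.

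The inside islands were spread thinly over 773 H3K36me3 islands. Of these hosts 728 held 1, 43 held 2 and 2 held 3 or more. Hosts had a median width of 11.0 kb and 53.3 H3K36me3 tags per kb, against 8.60 kb and 48.9 for the other H3K36me3 islands. By definition a host is at least as wide as the island inside it, and H3K36me3 density differs with width. Among H3K36me3 islands meeting no H3K9me3 the median was 40.5 tags per kb from 5 to 10 kb and 68.2 from 20 to 50 kb. Hosts and other islands were not compared within ranges of width. The inside island took up a median of 27.3% of its host. It lay a median of 1 kb from the nearer host edge, with a middle 50% of 0 to 3 kb, and 250 of the 821 were flush with an edge. In hosts of 20 kb or more, 137 of 245 inside islands (55.9%) had their centre nearer to an edge than to the middle of the host. Such positions make up 50% of a host's length. The centre of an island that lies wholly inside cannot reach the edge, so even placement would give a share below 50%. The share of inside islands with such a centre was 49.2% (229 of 465) in untreated ESCs, and a lean towards edges was not tested.

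Some of the 5 widest inside islands were nearly as wide as their hosts. On chromosome 16 the island at 98229201 to 98244600 (15.4 kb, 49.8 tags per kb) filled all but 0.2 kb of its host at 98229001 to 98244600. On chromosome 10 that at 82867401 to 82882600 (15.2 kb, 42.4 per kb) began at the same base as its host, which ran to 82884000. Another on chromosome 10 at 81831401 to 81846600 (15.2 kb, 59.2 per kb) ended with a host of 18.4 kb. On chromosome 17 the widest, at 6941001 to 6956600 (15.6 kb, 42.9 per kb), lay within a 43.2 kb host of 131.4 H3K36me3 tags per kb. That on chromosome 8 at 23598401 to 23613600 (15.2 kb, 43.1 per kb) lay in a 26.2 kb host. In untreated ESCs all 5 of these regions also carried H3K9me3, over 63.2% to 100% of their length, and H3K36me3, over 36.4% to 100%.

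Islands across 1 edge included the widest of any that met H3K36me3, at 90122001 to 90164000 on chromosome 1. It spanned 42.0 kb, held 30.9 tags per kb and overlapped over 21.0% of its length an 18.2 kb H3K36me3 island of 279.8 tags per kb, the highest H3K36me3 density of the PiC list. Among islands across 1 edge, the next in width was also on chromosome 1, from 180121401 to 180141400, 20 kb wide with 99.0% under H3K36me3. Islands of 18 kb followed on chromosome 1, from 184113201 to 184131200, and on chromosome 4, from 146888001 to 146906000, with 98.9% and 87.8% under H3K36me3. The fifth, on chromosome 6 from 8183801 to 8201200, was 17.4 kb wide with 29.9% under H3K36me3. The regions at 184113201 and 146888001 carried no H3K36me3 island in untreated ESCs, and the one at 180121401 carried it over 97.0%.

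Many of the pairs had much the same extent. In 647 of the 1548 cases (41.8%) the overlap made up at least 50% of both islands, and in 241 at least 80% of both. In 37 pairs start and end were identical, in widths up to 13.2 kb, and in 360 further pairs 1 of the ends was. Pairs overlapping by at least 50% had medians of 41.7 H3K9me3 and 47.5 H3K36me3 tags per kb. The H3K9me3 value was above the list median of 33.3, and the H3K36me3 value was close to the list median of 49.2. Marks on the same nucleosome, on the same allele or in different cells of the culture cannot be told apart in these data. Input tags were not analysed here, and the part of tags that gather in both libraries without an antibody was not tested for these pairs.

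Counted from H3K36me3, 1468 of 16363 islands (8.97%, interval 8.54 to 9.42) shared a base with H3K9me3, and narrow islands did so more often. The share was 16.6% (interval 14.7 to 18.6) of islands under 3 kb, 11.9% from 3 to 5 kb, 7.93% from 5 to 10 kb, 6.89% from 10 to 20 kb and 7.06% from 20 to 50 kb. It was 10.5% (8.01 to 13.5) at 50 kb or more. The portion of H3K36me3 bases under H3K9me3 fell throughout, at 13.9%, 9.19%, 4.71%, 2.31%, 1.10% and 0.646% in the same ranges.

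In all, 367 H3K36me3 islands lay wholly under an H3K9me3 island, 284 of them under 5 kb wide. Their median width was 3.20 kb and their median H3K36me3 density was 50 tags per kb (interval 48.1 to 51.9). H3K36me3 islands that met no H3K9me3 had a median width of 9 kb and a median density of 49.0 (48.6 to 49.4). H3K36me3 density differs with width, and these medians were not compared within ranges of width. The 367 islands occurred on all 19 autosomes, with 49 on chromosome 1. The widest of the covering H3K9me3 islands, from 87757201 to 87782800 on chromosome 1, spanned 25.6 kb at 59.6 tags per kb, with 3.12% of its length under H3K36me3. An 18.2 kb covering island on chromosome 1 at 7047401 to 7065600 met 3 H3K36me3 islands over 79.1% of its length. These covering islands were singled out after the class had been seen.

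At most of these sites H3K9me3 was listed in untreated ESCs as well, while H3K36me3 was not. Of the 367 H3K36me3 islands, 319 (86.9%) met an untreated H3K9me3 island and 62 (16.9%) an untreated H3K36me3 island, whereas 79.6% of all PiC H3K36me3 islands met an untreated one. Of the 318 covering H3K9me3 islands 289 (90.9%) met untreated H3K9me3, against 55.0% of all PiC H3K9me3 islands. The inside islands differed, with 492 of 821 (59.9%) meeting untreated H3K9me3 and 560 (68.2%) untreated H3K36me3. By distance, the share of PiC H3K9me3 islands that met untreated H3K9me3 was 70.4% for those sharing a base with H3K36me3 and 52.4% (interval 51.7 to 53.2) for those beyond 100 kb. The PiC and untreated H3K9me3 lists differ in length and in tags per island, and their part in these shares was not tested. Widths differ too, and a wider island has more bases with which to meet another. Median width was 3.20 kb for the 367 H3K36me3 islands against 8.80 kb for all. It was 5.40 kb for the covering H3K9me3 islands against 3.20 kb for all. These shares were not compared within ranges of width.

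The 5 H3K36me3 islands that met the most H3K9me3 islands showed how the marks interleave. A 39.4 kb H3K36me3 island on chromosome 1 at 7095601 to 7135000, with 56.5 tags per kb, held 4 H3K9me3 islands wholly inside. These were 0.8, 3.6, 2.6 and 7.2 kb wide with 52.5, 22.8, 21.5 and 56.0 tags per kb, and together took up 36.04% of it. Next came a 46.4 kb island on chromosome 5 at 128118801 to 128165200 with 3 inside islands over 21.1% of its length. On chromosome 10 at 78962201 to 78984000, 3 H3K9me3 islands took up 81.7% of 21.8 kb, and at 81512801 to 81528600 another 3 took up 73.4% of 15.8 kb. On chromosome 17 at 17375401 to 17388600, 3 took up 69.7% of 13.2 kb. Of these 5 regions, that at 78962201 had no H3K36me3 island in untreated ESCs, and the others were covered by it over 51.5% to 92.9%. All 5 carried untreated H3K9me3, over 12.7% to 55.0%.

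**Figure D3:**
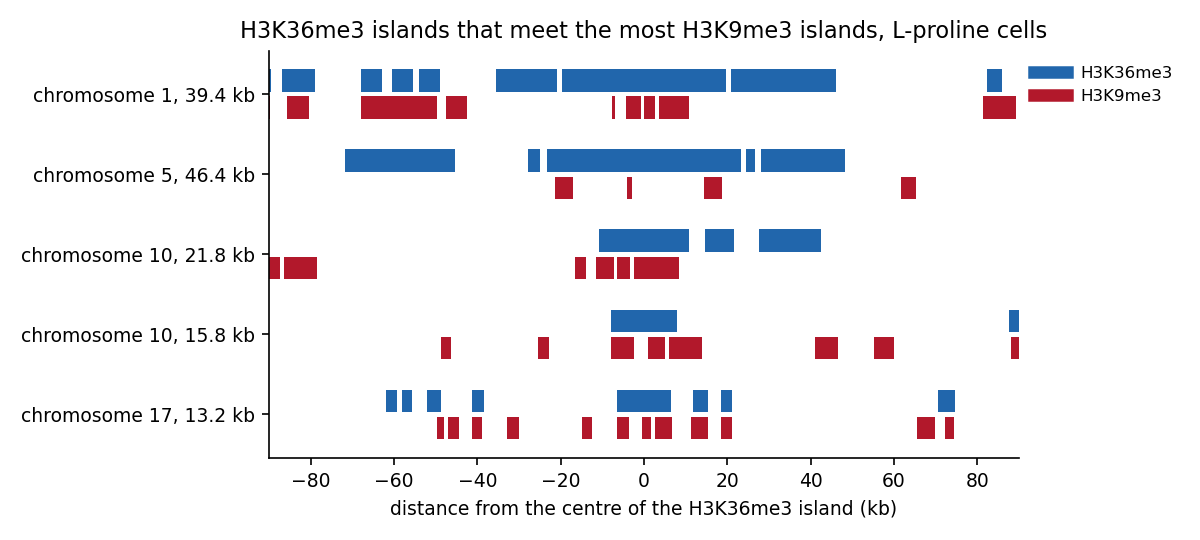
Islands of both marks within 90 kb of the centre of the 5 H3K36me3 islands that met the most H3K9me3 islands in PiCs; each row is 1 region, the upper bars are H3K36me3 and the lower bars H3K9me3, and the x axis is distance from the centre in kb. The chromosome 1 island of 39.4 kb holds 4 H3K9me3 islands inside it, and in the 21.8 kb island on chromosome 10 they take up 81.7% of the length.

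Breaks between neighbouring H3K36me3 islands were seldom filled with H3K9me3. Of 3462 gaps under 2 kb, 46 (1.33%, interval 0.974 to 1.77) met an H3K9me3 island and 17 lay wholly under one. The share was 2.24% of 2766 gaps from 2 to 5 kb, 5.44% of 3808 gaps from 5 to 20 kb, 26.0% of 3413 gaps from 20 to 100 kb and 80.3% of 2895 gaps of 100 kb or more. Per base, H3K9me3 covered 0.749% of the gaps under 2 kb, 1.29% of those from 5 to 20 kb and 4.04% of those of 100 kb or more. Short breaks in H3K36me3 were thus poorer in H3K9me3 than the bases under H3K36me3 islands of all widths, at 2.43%. Coverage of the islands depended on their width, at 13.9% under 3 kb, 1.10% from 20 to 50 kb and 0.646% at 50 kb or more. The 0.749% in gaps under 2 kb was above the last of these values. Gaps were not compared by the width of the islands beside them.

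Spacing between H3K9me3 islands was shortest for those within 5 kb of H3K36me3 and longest for those sharing a base with it. The median distance to the next H3K9me3 island was 12 kb over all islands (interval 11.6 to 12.4). It was 15.4 kb (13.0 to 18.2) for islands sharing a base with H3K36me3 and 5.00 kb (4.20 to 6.60) for those within 5 kb. In the further classes it was 11 kb to 20 kb, 12.2 kb to 100 kb and 12 kb beyond 100 kb.

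On the scale of 1 Mb, H3K9me3 was sparser in windows rich in H3K36me3. In the 2388 whole windows, H3K9me3 covered a mean of 3.73% (median 2.56%, highest 32.7%) and H3K36me3 a mean of 9.31% (median 5.04%, highest 57.5%). Median H3K9me3 coverage was 2.90% in the 643 windows without H3K36me3, 3.03% where H3K36me3 covered up to 5%, 2.82% from 5 to 10%, 2.52% from 10 to 20%, 1.82% from 20 to 30% and 1.56% above 30%. The order-statistic interval was 2.56 to 3.20% in the class without H3K36me3 and 1.28 to 1.86% in the class above 30%. The relation was weak over all windows, with a Spearman rho of -0.151 and a Pearson r of -0.175. The Spearman coefficient was -0.0221 for the 50% of H3K9me3 islands of highest density and -0.259 in windows of 5 Mb. These are descriptions over windows that share the same libraries and mappability, and neighbouring windows are not independent. Within chromosomes rho ran from -0.329 on chromosome 4 to 0.257 on chromosome 16, with a median of -0.163, and it was below 0 on 16 of 19.

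Windows with much H3K9me3 lacked H3K36me3 about as often as all windows, but fewer of them had high H3K36me3 coverage. Of the 165 windows with at least 10% H3K9me3, 46 (27.9%) had no H3K36me3, against 643 (26.9%) of all 2388. At least 10% H3K36me3 was found in 29 of them (17.6%) against 844 of all (35.3%), and at least 30% in 2 (1.21%) against 165 of all (6.91%). The richest lay on chromosome 2 from 36000001 (32.7% H3K9me3, 3.06% H3K36me3), chromosome 1 from 119000001 (29.7%) and chromosome 7 from 55000001 (29.5%), the last 2 with no H3K36me3. They held 50, 47 and 59 H3K9me3 islands, none of which met H3K36me3. At the other end, the window on chromosome 1 from 36000001 had 57.5% H3K36me3 and 3.54% H3K9me3. On chromosome 11, windows from 97000001 and 119000001 had 57.3% and 55.8% H3K36me3 and 0.220% and 0.0800% H3K9me3, with 1 H3K9me3 island each.

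Absence of H3K9me3 was rare, as only 46 windows had none, and 1722 windows (of 2388) held islands of both marks. Of the 46, 23 held no island of either mark, and how much of each window can be mapped was not analysed here. In 815 windows some base lay under both. The 119 windows (5%) with the most doubly covered sequence held 45.4% of it. The first was on chromosome 1 from 7000001, with 27.2% H3K9me3, 13.6% H3K36me3 and 66.0 kb under both. Of its 52 H3K9me3 islands 14 met H3K36me3, 6 of them inside and 7 covering. It was followed by chromosome 5 from 110000001 (57.8 kb), chromosome 1 from 11000001 (54.0 kb), chromosome 10 from 81000001 (51.4 kb) and chromosome 4 from 145000001 (44.8 kb). In untreated ESCs these 5 windows had 6.8, 29, 3.6, 22.4 and 28.6 kb under both marks.

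**Figure D4:**
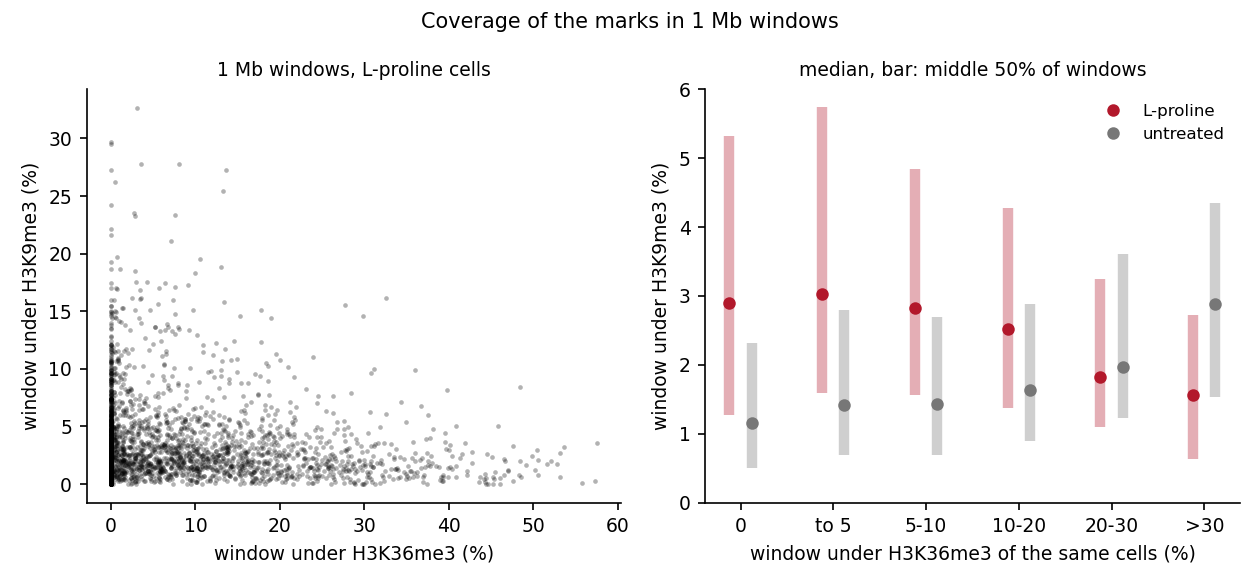
Left, percentage of each of the 2388 autosomal 1 Mb windows under H3K9me3 (y) against H3K36me3 (x) in PiCs. Right, median H3K9me3 coverage (%) with the middle 50% of windows, by classes of H3K36me3 coverage in the same cells, for PiCs and untreated ESCs. PiC medians go from 2.90% without H3K36me3 to 1.56% above 30%, and untreated medians from 1.16% to 2.89%.

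Chromosomes differed in how often the marks met. The share of H3K9me3 islands sharing a base with H3K36me3 ran from 3.56% on chromosome 19 (interval 2.05 to 5.72) to 9.08% on chromosome 17 (7.43 to 11.0), with a median of 6.59%. Chromosomes 15 and 16 were next below the highest, at 8.94% and 8.42%. The interval of chromosome 17 overlapped those of chromosomes 15 and 16 but lay above that of chromosome 19. H3K36me3 coverage of windows ran from 5.97% on chromosome 3 to 15.6% on chromosome 11, and H3K9me3 coverage from 2.73% on chromosome 12 to 6.39% on chromosome 1. Across the 19 autosomes the share followed H3K36me3 coverage loosely (Spearman rho 0.411, a description, since both come from the same H3K36me3 list). The median distance of islands sharing no base was 145.8 kb on chromosome 11 and 396.4 kb on chromosome 14. Chromosome 1 stood apart in H3K9me3, with a median of 36.2 tags per kb in islands beyond 100 kb against 31.4 to 33.1 on the others.

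**Figure D5:**
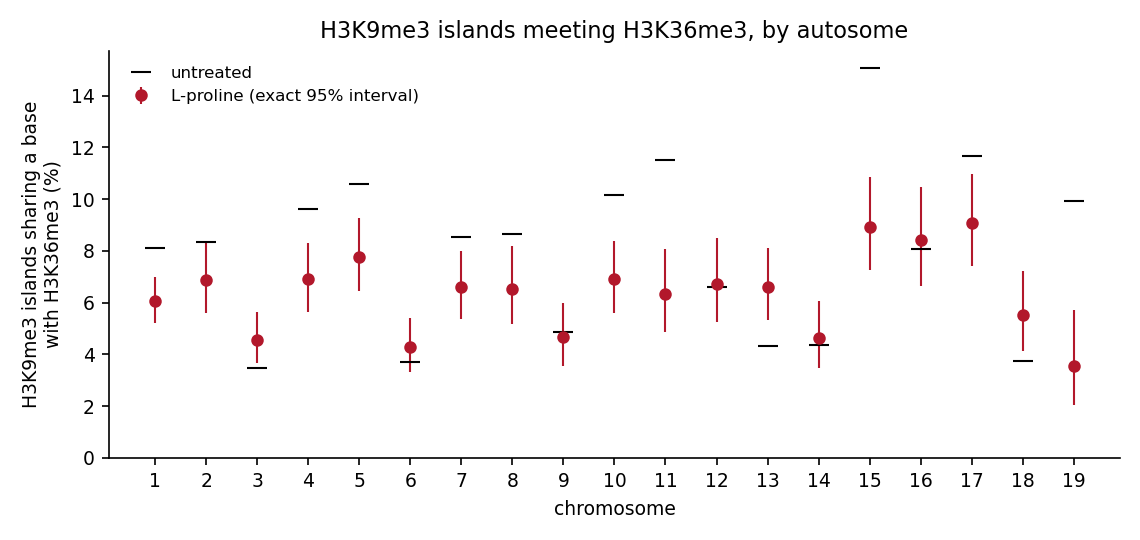
Percentage of H3K9me3 islands that share a base with an H3K36me3 island on each autosome; points are PiCs with exact 95% intervals over islands, dashes are untreated ESCs. PiC values run from 3.56% on chromosome 19 to 9.08% on chromosome 17, and the untreated value lies above the PiC interval on 11 chromosomes and below it on 3.

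Untreated ESCs shared several of these features. Their H3K9me3 coverage was 2.10% in the first kb outside the H3K36me3 edge, 1.94% in the second and 2.47% from 2 to 5 kb, against 3.30% from 10 to 20 kb, and it fell to 0.667% more than 20 kb inside. H3K9me3 met 2.00% of untreated H3K36me3 gaps under 2 kb and 77.7% of those of 100 kb or more. Other measures differed between the lists. The share of H3K9me3 islands sharing a base with H3K36me3 was 8.07% in untreated ESCs and 6.34% in PiCs, and the share wholly inside was 5.06% and 3.36%. By chromosome the PiC share was below the untreated one on 12 and above it on 7 of 19. Coverage within 5 kb of H3K36me3 was 1.15 times that beyond 100 kb in untreated ESCs, and 0.465 times in PiCs. Coverage beyond 100 kb was 1.96% in untreated ESCs and 4.17% in PiCs, and coverage within 5 kb was 2.26% and 1.94%. Whole H3K36me3 islands lay under H3K9me3 in 44 untreated cases and 367 PiC cases, and at least 50% of both islands was shared in 11.3% and 41.8% of the H3K9me3 islands sharing a base. The PiC lists hold more and narrower H3K36me3 islands (16363 of median 8.80 kb against 11971 of 12.8 kb) and more and wider H3K9me3 islands (24422 of 3.20 kb against 17697 of 2.60 kb) than the untreated lists. Their part in these differences was not tested.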

How the data were processed

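H3K9me3 and H3K36me3 islands of L-proline-treated cells were analysed, with those of untreated cells beside them, 1 library for each mark and condition. Islands were found with SICER on build mm9, per the submitters' processing notes. SICER's version and thresholds, the aligner, duplicate handling and any use of the input were not given in the sources used here. The files the authors deposited give a whole number per island with no header, taken as an unscaled tag count from its growth with width. Input was not analysed here, and the depth outside islands is unknown.

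Starts and ends fell on a grid of 200 bp, and islands were taken from the first to the last base of that grid. Distances run from edge to edge on the same autosome. The span of a chromosome runs from the first to the last base under any island of the condition, and windows of 1 Mb were used when whole. Tag densities were compared within a list only. Intervals at 95% are exact binomial (Clopper-Pearson) for shares and from order statistics for medians. No test was made, since no group has a replicate. Named regions were the 5 widest islands inside and across an edge, the 5 H3K36me3 islands meeting most H3K9me3 islands, the 3 densest of each distance class, the 3 farthest, the 5 windows with most sequence under both marks and the 3 richest in each mark. The members, classes and this rule were chosen with earlier results of these data known. Alternatives changed the density threshold, the joining of gaps, the minimum width, the overlap, the reference point, the chromosomes and the window size. The placement was tested on simulated data, where 9898 planted islands gave 0 wrong places and 0 wrong distances. Python 3.11.15, numpy 2.4.6, pandas 2.3.3, scipy 1.17.1 and matplotlib 3.10.9 were used.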

Additional observations from a re-analysis of the deposited data

Results flagged for a closer look

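In 3 measures PiCs and untreated ESCs lay on opposite sides of no difference. H3K9me3 coverage within 5 kb of H3K36me3, divided by coverage beyond 100 kb, was 0.465 in PiCs and 1.15 in untreated ESCs. The median tag density of H3K9me3 islands sharing a base with H3K36me3, divided by that of islands beyond 100 kb, was 1.18 in PiCs and 0.754 in untreated ESCs. The contrast was not uniform: the untreated ratio was above 1 on 6 of 19 autosomes, up to 1.17 on chromosome 18, and was 1.12 for islands of 10 kb or more. The Spearman rho of the coverage of the marks in 1 Mb windows was -0.151 in PiCs and 0.219 in untreated ESCs. With 1 library for each mark and condition these differences were not tested.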

How the results depend on the processing

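No paired analysis was possible because no group holds more than 1 library, and no replicate could be left out. Over 55 alternatives for 6 results in PiCs, 38 stayed close to the reported value and 17 moved. Close meant within 10% for the coverage ratio, within 0.05 for rho and within the 95% interval for the other results. None of the 8 alternatives for the coverage ratio, 9 for the density ratio and 10 for rho changed direction. The shares and the median distance have no direction that could change. Among the 50% of H3K36me3 islands of highest tag density, the share of H3K9me3 islands sharing a base was 3.42%, the share inside 1.96%, the median distance 329 kb and the density ratio 1.21. Among the 50% of H3K9me3 islands of highest density, the share was 8.29%, the share inside 4.05%, the median distance 204.6 kb, the coverage ratio 0.685, the density ratio 1.09 and rho -0.0221. The share was 5.76% when an overlap of 200 bp and 50% was required and 5.83% by midpoints, which is also the share inside by midpoints. Joining H3K36me3 islands over 5 kb gave 3.72% inside. The median distance was 253 kb for islands of at least 2 kb and 249.8 kb with chromosome X. In windows of 5 Mb rho was -0.259. Leaving out chromosome 1, an alternative chosen after seeing the data, moved none of the 6. The cause of these moves was not tested beyond the change each alternative makes to the lists. The tag counts outside islands, which would set how weak a shared region could be seen, were not analysed here.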
